A study of Rattus norvegicus with 15 samples.

Results

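Intestinal zinc handling was followed through 9 genes of the rat: the zinc importers Slc39a4, Slc39a5, Slc39a8 and Slc39a14 (the ZIP family), the zinc exporters Slc30a1, Slc30a2, Slc30a4 and Slc30a10 (the ZnT family, Slc30a10 being better known for manganese), and the metallothionein Mt1a. They were taken as all probes whose gene name in the scanner files is one of these symbols or an older form of it. This gave 14 of the 41012 probes of the array and 9 of its 35537 genes.

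Mucosal cell suspensions from stomach, duodenum, jejunum, ileum and colon were profiled, with 3 samples per segment and 15 in all. The rats were untreated males of the Sprague Dawley strain, except that the labels of ileum 3 give neither strain nor sex; their age is not given in the sources used here. Cells were freed from everted gut by a short digestion with pronase, a mixture of proteases, and collected by elutriation, which sorts cells by sedimentation. The RNA was amplified, labelled with Cy3 or Cy5 and hybridised to Agilent oligonucleotide arrays covering the rat genome. Each suspension holds every cell type that this procedure releases. The labels do not tie the 3 isolations of a segment to different animals. The p-values therefore speak to the spread among isolations, which may be technical.

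Dietary zinc enters the enterocyte across its apical membrane mainly through Slc39a4, leaves it for the blood across the basolateral membrane through Slc30a1, and is buffered inside the cell by metallothioneins, small cysteine-rich proteins. When free zinc rises, the zinc finger factor Mtf1 binds metal response elements and raises transcription of metallothionein genes and of Slc30a1. Members of the ZIP family move zinc into the cytosol, and members of the ZnT family move it out of the cytosol, to the outside or into vesicles.

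The upstream sequences of Mt1a and Slc30a1 are shown because both genes are textbook targets of Mtf1, so that the spacing of its element cores can be read beside their levels. Each is the 250 bases before the start site, 5′ to 3′ on the gene's strand, from RefSeq on build GRCr8. Capitals mark matches to the core of the metal response element, searched as TGCACNC or TGCGCNC on both strands.

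Mt1a, chr19:10832976-10833225, minus strand: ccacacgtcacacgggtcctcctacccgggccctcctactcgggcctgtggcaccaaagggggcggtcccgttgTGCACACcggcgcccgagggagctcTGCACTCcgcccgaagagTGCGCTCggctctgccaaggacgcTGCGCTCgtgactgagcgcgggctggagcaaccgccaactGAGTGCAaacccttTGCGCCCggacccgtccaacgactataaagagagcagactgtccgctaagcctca

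Slc30a1, chr13:106021769-106022018, plus strand: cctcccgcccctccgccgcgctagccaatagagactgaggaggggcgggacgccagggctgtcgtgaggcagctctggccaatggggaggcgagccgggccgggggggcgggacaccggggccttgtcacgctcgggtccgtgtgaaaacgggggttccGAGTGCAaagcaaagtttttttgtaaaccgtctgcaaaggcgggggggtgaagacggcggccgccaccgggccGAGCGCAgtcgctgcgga

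The Mt1a sequence held 6 cores, which do not overlap, and the Slc30a1 sequence held 2. The background was all 33469 windows of RefSeq that run from 250 bases before to 50 bases after a start site. With overlapping cores counted as 1, 24.2% of them held at least 1, 5.39% at least 2 and 0.0299% at least 6. The windows of Mt1a and Slc30a1 also held 6 and 2. Windows were found for 6 of the 9 genes. In windows of this kind, Slc30a4 had 3 cores and Slc30a2 had 3 at one of its start sites and 0 at the other, while Slc39a5 and Slc39a8 had 0. Slc39a4, Slc39a14 and Slc30a10 were not among the matched names. A match describes the letters only and says nothing of binding.

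A level is the log2 of the background-subtracted, dye-normalised intensity of the labelled channel minus the 75th percentile of that sample, so a level of 0 equals the brightness of that percentile. Probes differ in how well they bind, so levels are compared between segments for 1 probe and never between genes. Where a gene had several probes, the brightest one measured in all segments was used. Differences are on the log2 scale, with their standard errors (SE) from limma, and p-values were adjusted by Benjamini-Hochberg over 33607 genes. The small bowel stands for the mean of duodenum, jejunum and ileum, 9 samples.

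Array-wide facts bear on what can be compared. The 3 stomach samples were scanned on a day of their own, with an earlier software version and a coarser resolution, and the 3 colon samples on another scanner model. Colon 1 and colon 2 are the Cy3 and Cy5 channels of the same hybridisation, and colon 3 comes from a scan of the same slide on another day; whether it was a separate hybridisation is not given in the sources used here. Colon was counted as 3 samples, and the 5 zinc genes called in colon also passed with colon 2 and colon 3 averaged into 1 sample. The 3 ileum samples were all Cy3, on slides and scan days that held no other segment, while duodenum and jejunum shared slides and days. For stomach, ileum and colon, the segment and the scan cannot be told apart. The scanner software's test for a spot well above background was set differently too, with a multiplier of 2.6 in stomach and 13 in the small bowel and none given for colon, so shares of such probes cannot be compared between these 3. They were 95.4% to 97.1% in stomach, 74.5% to 90.6% in colon and 44.4% to 92.5% in the small bowel, where ileum 1 was lowest. The gastric marker genes were higher in stomach in 10 of 10 cases, and the absorptive enterocyte markers lower there in 10 of 10. Ileal markers were higher in ileum than jejunum in 3 of 5, and colonic markers higher in colon in 5 of 7 and lower in 1. By segment, the labelled tissues thus carried their markers. For colon 3 the summed colonic markers cannot decide this. Its sum was 3.73, against 7.02 and 7.21 in colon 1 and colon 2, but it lacks Car1. The colon mean of Car1 is too high for Car1 to have had a value in colon 3. That mean lay close to the sums of colon 1 and colon 2, so those sums mostly reflect Car1. Duodenum 2 (4.10) and jejunum 1 (3.87) lay above the colon 3 sum, a comparison limited by the same gap.

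The zinc genes differed mainly between the small bowel and the segments on either side of it. In stomach, 7 of the 9 genes were lower than in the small bowel and 0 were higher, with Slc39a4 furthest down at 17.2-fold by the probes used. In colon, Slc39a8 and Mt1a were higher than in the small bowel, and Slc30a1, Slc30a2 and Slc39a14 were lower. Within the small bowel, the change that passed the test was a lower Slc30a10 in ileum, which had scans of its own. Over all 5 segments together, 8 of the 9 genes differed by limma's F test, where 42.2% of all tested genes did, and the exception was Slc39a5 (adjusted p = 0.17).

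Read against the background, the stomach count stood on 27.3% of all genes that passed the test, 11.8% lower and 15.5% higher. The median difference of the 9 genes was −2.01, against 0.28 for all genes tested. The colon count was 5 of 9 where 25.8% of all genes passed, 12.6% higher and 13.2% lower, with a median of −0.41 against 0.00. The single ileal call stood on 4.2% of all genes, with 2.74% lower, and duodenum and jejunum differed in 0 of 9 genes by limma's adjusted p where 0.553% of all genes did. Among the single pairs of segments, zinc genes passed in 6 of 9 between stomach and duodenum (22.7% of all genes), 6 between stomach and jejunum (21.5%), 5 between stomach and ileum (22.3%), 5 between stomach and colon (35.3%), 5 between duodenum and colon (23.5%), 4 between jejunum and colon (25.8%), 3 between ileum and colon (15.5%) and 1 between duodenum and ileum (2.83%). Between duodenum and jejunum, 4 of the 9 had an unadjusted p under 0.05, as did 8.56% of all genes: Slc39a14, Slc30a10 and Mt1a with positive differences and Slc30a2 with a negative one. In bulk samples of this kind, fewer cells of a type and less RNA per cell cannot be told apart.

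**Figure D1:**
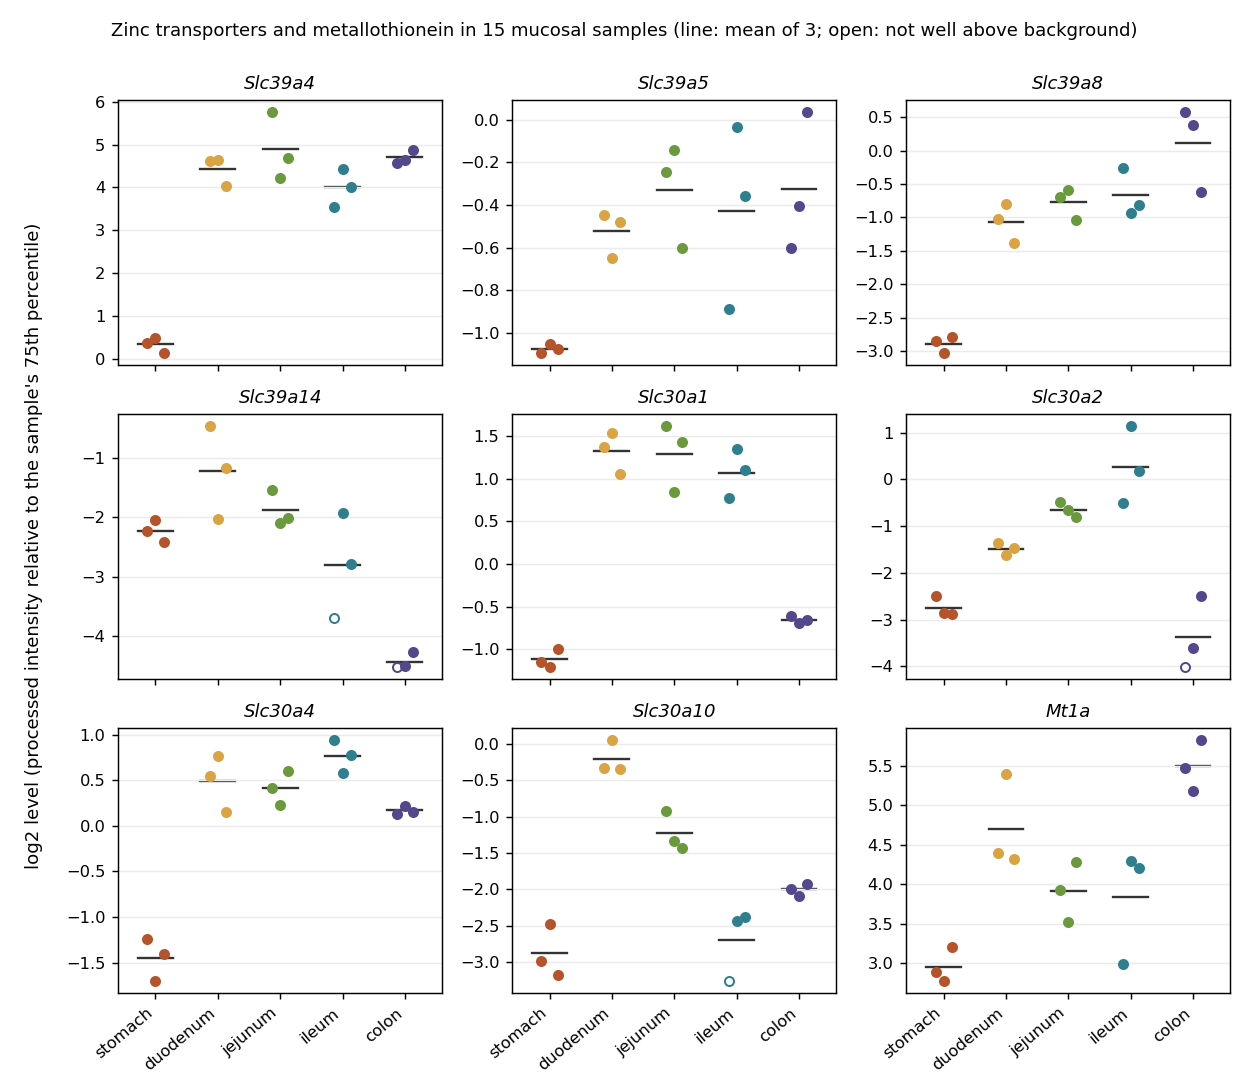
Level of each of the 9 zinc genes (log2 intensity minus the sample's 75th percentile, y axis) in the 3 samples of each segment (x axis), with points for samples and bars for segment means. The stomach samples of Slc39a4 lie at 0.13 to 0.49, below all 12 other samples, and the colon samples of Slc30a1 lie at −0.70 to −0.61, between stomach and small bowel.

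Slc39a4, the apical zinc importer whose loss causes the zinc deficiency disorder acrodermatitis enteropathica in humans, was read by a single probe at chr7:114696173-114696232 (build rn3, as in the scanner files). It read 0.37, 0.49 and 0.13 in stomach samples 1 to 3, 4.62, 4.63 and 4.03 in duodenum, 5.75, 4.22 and 4.68 in jejunum, 3.55, 4.43 and 4.01 in ileum, and 4.58, 4.63 and 4.88 in colon. All 12 intestinal samples lay above the 3 stomach samples with no overlap, whereas the 4 intestinal segments overlapped or lay close together.

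The stomach was lower than the small bowel by 4.11 ± 0.27 (SE) on the log2 scale, 17.2-fold, with a limma adjusted p of 5.45e-09. The colon stood at the level of the small bowel within error, with a difference of 0.32 ± 0.34 (adjusted p = 0.531). In descending order the segments were jejunum, colon, duodenum, ileum and stomach, and of these neighbours only ileum and stomach differed beyond their spread (3.61, adjusted p = 4.83e-07). Ileum against jejunum gave −0.94 ± 0.33 (adjusted p = 0.113), and without 1 sample at a time it ran from −1.30 without jejunum 2, where it passed (adjusted p = 0.0214), to −0.49 without jejunum 1 (adjusted p = 0.527). With normexp, another background correction, its sign turned (0.20, adjusted p = 0.788).

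The absorptive enterocyte markers, 10 genes such as sucrase-isomaltase and lactase, were all lower in stomach, and all but Cdh17 were lower in colon. Slc39a4 passed the test in stomach alone. Their summed level was 1.45 to 1.48 in stomach, 7.21 to 7.86 in duodenum, 8.26 to 10.4 in jejunum, 6.67 to 7.86 in ileum and 5.95 to 6.10 in colon. In colon 9 of the 10 were lower than in the small bowel, and Si, Lct and Slc2a5 were not well above background in any colon sample. Cdh17 had a mean of 5.71 in colon and of 5.70, 6.23 and 4.97 in duodenum, jejunum and ileum. Its colon mean lay close to the summed colon level, so that sum mostly reflects Cdh17. In stomach, markers of fibroblasts and matrix were higher in 7 of 10 cases, with a summed level of 6.07 to 6.43 against 1.89 to 3.00 in the other segments. Their part in the lower zinc genes of the stomach was not tested.

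Slc39a5, a basolateral importer of enterocytes and pancreatic cells, moved least. Levels were −1.09, −1.05 and −1.07 in stomach, −0.45, −0.65 and −0.48 in duodenum, −0.24, −0.14 and −0.60 in jejunum, −0.88, −0.03 and −0.36 in ileum, and −0.60, −0.41 and 0.03 in colon. Every stomach sample lay below every intestinal sample, and the 4 intestinal segments overlapped. The stomach difference of −0.65 ± 0.24 missed the threshold (adjusted p = 0.0542), and it passed under 7 of 14 alternative settings, over which the adjusted p ran from 0.0101 to 0.215. It also passed without jejunum 3, ileum 1, colon 1 or colon 3.

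Slc39a8, an importer of zinc, manganese and cadmium, was lowest in stomach and highest in colon. By the probe at chr2:233389075-233389134 (rn3), its levels were −2.86, −3.03 and −2.80 in stomach, −1.03, −0.80 and −1.38 in duodenum, −0.69, −0.58 and −1.04 in jejunum, −0.25, −0.94 and −0.81 in ileum, and 0.58, 0.39 and −0.62 in colon. Stomach was apart from all other samples, and in colon samples 1 and 2 exceeded every small bowel sample while colon 3 fell among them.

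The stomach was lower than the small bowel by 2.06 ± 0.29, 4.16-fold (limma adjusted p = 3.55e-05), and the colon was higher by 1.05 ± 0.36, 2.07-fold (adjusted p = 0.0411). Of neighbouring segments in the order colon, ileum, jejunum, duodenum and stomach, only the last pair differed (1.92, adjusted p = 0.000641). The colon call was lost under 5 of 14 alternative settings and when any of 9 of the 15 samples was left out (stomach 1 or 2, duodenum 3, jejunum 2 or 3, ileum 2 or 3, colon 1 or 2), with differences between 0.82 and 1.35 and adjusted p between 0.0112 and 0.189 over the samples left out.

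The array carried 2 more Slc39a8 probes. The brightest carried the scanner's mark for a non-uniform or outlying spot on all 3 colon samples and was therefore not used. With its marked spots kept, an alternative chosen after the data were seen, its levels were −3.14, −3.08 and −3.21 in stomach, 0.98, 0.85 and 0.86 in duodenum, 1.91, 0.72 and 2.21 in jejunum, 2.54, 1.89 and 2.06 in ileum, and 3.24, 3.27 and 3.32 in colon. Here all colon samples exceeded all others, and the limma differences were −4.70 ± 0.26 in stomach (adjusted p = 9.86e-10) and 1.65 ± 0.33 in colon (adjusted p = 0.00159). The last probe gave −1.10 in stomach (adjusted p = 0.0329) and 0.55 in colon (adjusted p = 0.403). Direction was thus shared by the 3 probes while size was not.

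That last probe and the used probe of Slc39a14 are shown because their genomic spans exceed their 60 bases, so each reads spliced RNA across a junction. Sequences are 5′ to 3′ as on the array. The Slc39a8 probe spans 1568 bases at chr2:233385713-233387280 and the Slc39a14 probe 569 bases at chr15:50725040-50725608 (minus strand), both in rn3.

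Slc39a8, junction probe: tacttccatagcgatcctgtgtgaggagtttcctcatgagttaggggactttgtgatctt

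Slc39a14, junction probe: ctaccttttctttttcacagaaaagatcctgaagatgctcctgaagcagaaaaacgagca

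Slc39a14, an importer of zinc, iron and manganese, was low in colon. By the junction probe its levels were −2.24, −2.04 and −2.41 in stomach, −0.46, −2.03 and −1.16 in duodenum, −1.55, −2.09 and −2.0 in jejunum, −3.70, −1.92 and −2.78 in ileum, and −4.52, −4.51 and −4.27 in colon. Ileum 1 and colon 1 were not well above background. The 3 colon samples lay below the other 12, among which neighbouring segments ran into each other.

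The colon was lower than the small bowel by 2.34 ± 0.47, 5.06-fold (limma adjusted p = 0.00172), and lower than the stomach too (2.08, adjusted p = 0.00633). The stomach did not differ from the small bowel beyond error (−0.26 ± 0.38, adjusted p = 0.641). The 2 Slc39a14 probes disagreed: the dimmer one gave −1.23 in stomach (adjusted p = 0.0413) and −0.74 in colon (adjusted p = 0.336). With normexp, the colon difference of Slc39a14 was −0.41 (adjusted p = 0.241).

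**Figure D2:**
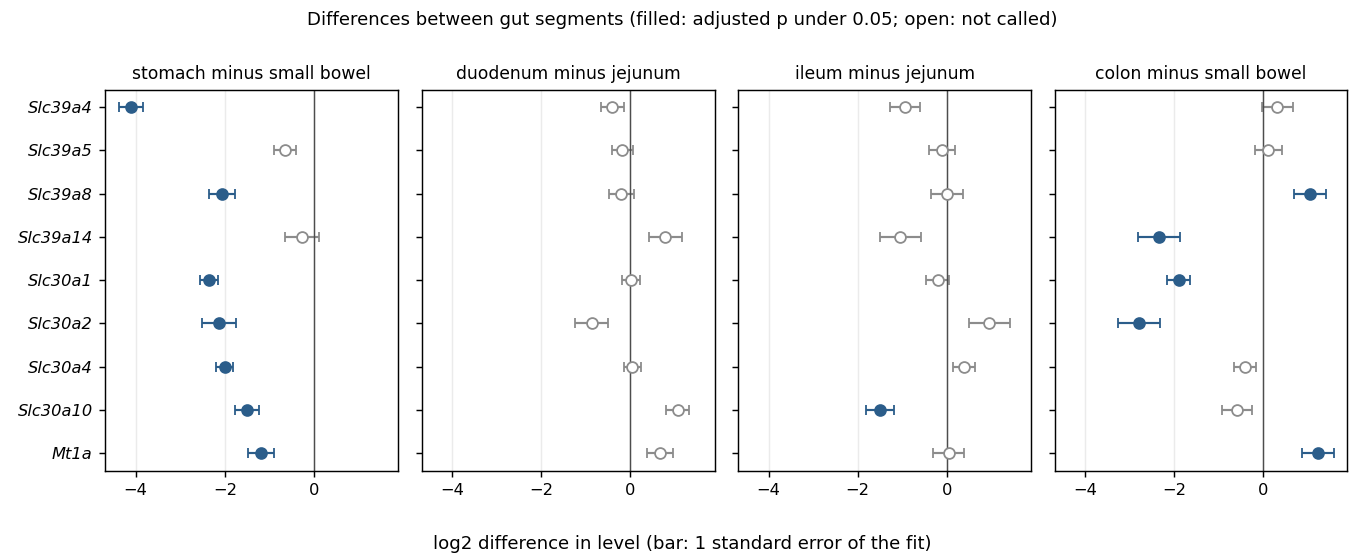
Difference of each zinc gene in each of the 4 main comparisons (log2, x axis, with bars of 1 SE) as fitted by limma; filled points passed an adjusted p of 0.05. In stomach against small bowel 7 points are filled, all below 0, and in colon against small bowel 5 are filled, with Mt1a and Slc39a8 above 0.

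Slc30a1, the basolateral exporter that releases zinc towards the blood, was highest in the small bowel. Its levels by the probe at chr13:108172793-108172852 (rn3) were −1.15, −1.21 and −1.0 in stomach, 1.38, 1.53 and 1.05 in duodenum, 1.62, 0.84 and 1.43 in jejunum, 0.77, 1.35 and 1.1 in ileum, and −0.61, −0.70 and −0.66 in colon. The 9 small bowel samples were all above the 6 from stomach and colon, and duodenum, jejunum and ileum overlapped.

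Stomach was lower than the small bowel by 2.35 ± 0.21, 5.09-fold (limma adjusted p = 1.72e-07), and colon by 1.90 ± 0.26, 3.74-fold (adjusted p = 5.51e-05). Stomach and colon themselves gave −0.45 ± 0.29 (adjusted p = 0.247). Both calls held under all 14 alternative settings and in all 15 fits that left out a sample. The basolateral exporter was thus lower in colon, where the apical importer Slc39a4 did not differ from the small bowel beyond error.

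Slc30a2, which fills vesicles with zinc and is a transporter of secretory cells including Paneth cells, had its highest level in ileum. Levels by the probe at chr5:153107009-153107068 (rn3) were −2.49, −2.87 and −2.89 in stomach, −1.36, −1.62 and −1.47 in duodenum, −0.49, −0.65 and −0.81 in jejunum, −0.50, 1.14 and 0.17 in ileum, and −4.01, −3.61 and −2.50 in colon. Colon 1 was not well above background. The small bowel samples lay above all others, duodenum below jejunum without overlap, and stomach and colon overlapped.

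The stomach was lower than the small bowel by 2.13 ± 0.37, 4.37-fold (limma adjusted p = 0.000344), and the colon by 2.79 ± 0.47, 6.91-fold (adjusted p = 0.000377). With normexp the colon difference was −1.30 and still passed (adjusted p = 0.001). Ileum exceeded colon by 3.72, 13.1-fold (adjusted p = 0.000248). The steps inside the small bowel did not pass: duodenum against jejunum was −0.87 ± 0.37 (adjusted p = 0.50), and the 3 pairs that shared a slide gave −0.55, −1.13 and −0.82. Duodenum against ileum was −1.83 ± 0.48 (adjusted p = 0.0518). The dimmer Slc30a2 probe had the same signs, with −1.90 in colon (adjusted p = 0.012) and −1.0 in stomach (adjusted p = 0.0772).

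Paneth cell markers moved beside Slc30a2 in stomach, colon and ileum, but not between duodenum and jejunum. There 1 marker was higher and 0 lower, while Slc30a2 had a difference of −0.87 that did not pass. Within jejunum, the summed markers were lowest in jejunum 1 (4.61) and highest in jejunum 3 (7.02), where Slc30a2 read −0.49 and −0.81. Of 8 tested, 6 were lower in stomach, 6 lower in colon and 3 higher in ileum than in jejunum: the antimicrobial products Pla2g2a and Reg3g and the protease Mmp7. Their summed level was 2.02 to 2.06 in stomach, 4.72 to 5.56 in duodenum, 4.61 to 7.02 in jejunum, 6.80 to 7.86 in ileum and 3.14 to 3.55 in colon. T cell markers were also lower beside Slc30a2 in stomach and colon. Of 8 tested, 5 were lower in stomach, 6 lower in colon and 2, Cd3e and Cd8a, higher in ileum than in jejunum. The T cell sum was 2.06 to 2.28 in stomach, 3.56 to 4.15 in duodenum, 4.11 to 5.21 in jejunum, 4.65 to 5.74 in ileum and 2.23 to 2.26 in colon. Of 9 macrophage and dendritic cell markers tested, 4 were higher in ileum and 1 lower in duodenum than in jejunum. In stomach 3 of them were lower, and in colon 3 were lower and 1 higher. The part of all these cells in the Slc30a2 levels was not tested.

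Slc30a4, a vesicular zinc exporter best known from mammary gland, separated stomach from intestine. Its levels by the probe at chr3:109550118-109550177 (rn3) were −1.24, −1.70 and −1.41 in stomach, 0.55, 0.76 and 0.15 in duodenum, 0.41, 0.23 and 0.60 in jejunum, 0.94, 0.58 and 0.78 in ileum, and 0.13, 0.22 and 0.16 in colon. Stomach lay apart, and the colon samples sat at the lower edge of the intestinal range with a narrow spread of their own. The stomach difference was −2.01 ± 0.20, 4.02-fold lower (limma adjusted p = 7.75e-07), and the colon difference was −0.41 ± 0.25 (adjusted p = 0.243). Colon and stomach, next to each other in the order, differed by 1.59 (adjusted p = 0.000398), and no other neighbours did.

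Slc30a10, which exports manganese, was highest in duodenum and lower in ileum than in jejunum. Its probe at chr13:101680461-101680520 (rn3) gave −2.99, −2.48 and −3.18 in stomach, −0.33, 0.06 and −0.34 in duodenum, −0.92, −1.34 and −1.43 in jejunum, −3.26, −2.43 and −2.39 in ileum, and −1.99, −2.09 and −1.93 in colon. Duodenum, jejunum and ileum did not overlap with each other, ileum overlapped with stomach, and ileum 1 was not well above background.

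Ileum was lower than jejunum by 1.5 ± 0.32, 2.83-fold (limma adjusted p = 0.0167), a call that was lost without jejunum 1 (−1.40, adjusted p = 0.0725) or without ileum 1 (−1.22, adjusted p = 0.0565). Duodenum exceeded ileum by 2.56 ± 0.34, 5.92-fold (adjusted p = 0.000361), the single zinc gene to differ between them where 2.83% of all genes did, and exceeded colon by 1.80 (adjusted p = 0.00221). Duodenum against jejunum was 1.06 ± 0.26 and missed the threshold (adjusted p = 0.0901). The 3 duodenum and jejunum pairs that shared a slide gave 1.1, 0.98 and 1.0, so every pair showed the direction.

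That last difference passed with normexp (0.81, adjusted p = 0.0478), with quantile normalisation (1.03, adjusted p = 0.038) and without colon 3 (adjusted p = 0.0339). The stomach was lower than the small bowel by 1.51 ± 0.27, 2.84-fold (adjusted p = 0.000356), while stomach against ileum alone was −0.15 (adjusted p = 0.782). The colon difference of −0.59 ± 0.33 did not pass (adjusted p = 0.209). In descending order of level, Slc30a10 ran duodenum, jejunum, colon, ileum, stomach, Slc30a2 ileum, jejunum, duodenum, stomach, colon, and Slc39a14 duodenum, jejunum, stomach, ileum, colon. In none of these orders, nor in that of Mt1a (colon, duodenum, jejunum, ileum, stomach), did neighbouring segments pass limma's test.

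**Figure D3:**
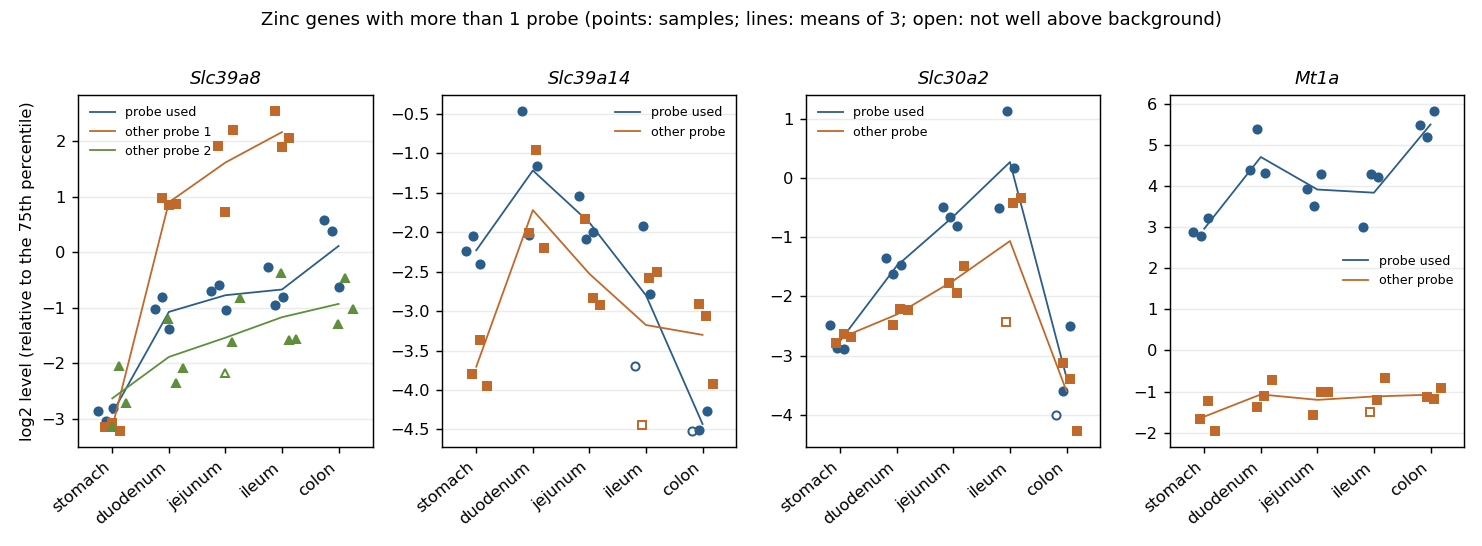
Levels given by each probe of the 4 zinc genes with several probes (log2 intensity minus the 75th percentile, y axis) by segment (x axis), with points for samples, lines through segment means and open points where a spot was not well above background. The used Mt1a probe climbs to 5.18 to 5.82 in colon, while its other probe has a mean of −1.08 in colon and −1.07 in duodenum.

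Mt1a, the zinc-buffering metallothionein with 6 element cores upstream, was highest in colon. Levels by the probe at chr19:11266532-11266591 (rn3) were 2.89, 2.78 and 3.21 in stomach, 4.39, 5.39 and 4.32 in duodenum, 3.93, 3.52 and 4.28 in jejunum, 2.99, 4.3 and 4.21 in ileum, and 5.47, 5.18 and 5.82 in colon. Stomach and colon did not overlap, but ileum 1 fell among the stomach samples and duodenum 2 among the colon samples.

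The colon was higher than the small bowel by 1.22 ± 0.37, 2.34-fold (limma adjusted p = 0.0209), and the stomach was lower by 1.19 ± 0.29, 2.28-fold (adjusted p = 0.00528). Between stomach and colon the difference was 5.33-fold (adjusted p = 0.000288). Colon exceeded jejunum by 1.46 (adjusted p = 0.0154) and ileum by 1.42 (adjusted p = 0.033), while colon against duodenum was 0.79 (adjusted p = 0.169). Duodenum against jejunum was 0.67 ± 0.29 (adjusted p = 0.511), with 0.10, 1.46 and 0.80 in the pairs that shared a slide.

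The colon call of Mt1a was lost with normexp (0.74, adjusted p = 0.178), with quantile normalisation (0.58, adjusted p = 0.247), with the mean of both probes (0.62, adjusted p = 0.128), and without colon 1 (1.03, adjusted p = 0.106) or colon 3 (1.13, adjusted p = 0.0749). The second Mt1a probe gave −0.48 in stomach (adjusted p = 0.19) and 0.01 in colon (adjusted p = 0.988). Genes that respond to tissue dissociation, among them immediate early and heat shock genes, moved the same way as Mt1a: 16 of 20 were higher and 1 lower in colon, and 15 were lower and 1 higher in stomach. Their summed level was 5.96 to 6.29 in stomach, 8.5 to 8.84 in duodenum, 7.70 to 9.06 in jejunum, 7.21 to 7.75 in ileum and 9.56 to 9.87 in colon. Their part in the Mt1a levels was not tested.

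A second metallothionein, LOC682651, is described in the files as similar to metallothionein-2 and is not among the 9 genes. Its probe, at chr19:11272997-11273056 (rn3, minus strand), is shown because 7 of its 20 triplets, read from the first base, are TGC, a codon for cysteine. Capitals mark those triplets.

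LOC682651 probe: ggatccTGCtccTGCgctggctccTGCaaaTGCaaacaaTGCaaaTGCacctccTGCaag

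Its levels were 1.93, 1.84 and 1.91 in stomach, 2.33, 2.92 and 2.17 in duodenum, 2.70, 1.83 and 1.77 in jejunum, 0.82, 2.21 and 2.33 in ileum, and 2.86, 2.55 and 3.21 in colon. Colon was the highest segment by mean but overlapped with duodenum and jejunum. The colon difference was 0.77 and the stomach difference −0.23, neither past the threshold, and the F test over segments gave an adjusted p of 0.172. Metallothionein sequences are alike, and whether either probe also reads the other gene's RNA was not tested.

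The other genes of zinc handling are described list by list. Of 10 other ZIP importers tested, Slc39a13, an importer of secretory vesicles and Golgi, was higher in stomach (1.95, adjusted p = 2.54e-06), and Slc39a11 and Slc39a7 were lower (−0.86 and −0.71). In colon 3 were higher, Slc39a13 (2.77), Slc39a6 (1.79) and Slc39a11 (1.45), and 0 lower, with a median of 0.69 against 0.00 for all genes. Between ileum and jejunum Slc39a6 was higher (1.26) and Slc39a3 lower (−1.44), and between duodenum and jejunum 0 passed. In stomach the median difference of these 10 importers was 0.20, against 0.28 for all genes.

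Among 5 other ZnT exporters tested, Slc30a6 was lower in stomach (−0.71), Slc30a3 was higher in colon (2.63) and Slc30a8, the zinc transporter of insulin granules, was lower there (−1.25). Of 6 listed genes of metallothionein and zinc sensing, 3 could be tested, and of these Mtf1 alone passed: it was lower in stomach (−1.68, adjusted p = 0.0252), with 6 of 9 small bowel samples well above background. Zinc-dependent brush border enzymes, peptidases and phosphatases that carry zinc in their active site, followed the small bowel. Of 10 tested, 8 were lower in stomach, led by Mep1b (−7.23), Enpep (−5.31) and Mme (−4.53), and 7 were lower in colon, led by Enpep (−6.44), Alpi (−5.20) and Mme (−2.11), while Mep1a was higher there (1.13). In ileum against jejunum, Alpi (−4.99), Mme (−2.42) and Ace (−1.84) were lower and Naaladl1 (1.95) and Xpnpep2 (1.23) higher, and in duodenum Enpep (−2.71) and Naaladl1 (−1.76) were lower than in jejunum.

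Over the 15 samples, each zinc gene had genes whose levels ran most like it, measured as Pearson's r and given as a description, since the samples share their segments, scans and scaling. Slc39a4 ran most like Cdhr5 (r = 0.994), a protocadherin of the brush border, then Cdh17 (r = 0.988), an intestinal cadherin, and Cln6 (r = 0.987). Cdhr5 levels were −2.74 to −2.44 in stomach, 4.88 to 5.93 in duodenum, 4.54 to 7.28 in jejunum, 3.66 to 4.37 in ileum and 5.31 to 5.44 in colon. Like Slc39a4, it had jejunum 1 as its highest sample, and its colon samples lay within the range of the small bowel.

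Slc30a10 ran most like Slc40a1 (r = 0.958), ferroportin, the iron exporter of the duodenal enterocyte, then Bola3 (r = 0.94) and Bpnt1 (r = 0.926). Slc40a1 levels were 0.16, 0.66 and −0.36 in duodenum, −1.08, −1.79 and −2.31 in jejunum, −4.01, −3.94 and −3.57 in ileum, −2.32, −1.98 and −2.03 in colon, and −4.03, −4.3 and −4.3 in stomach. Both genes were highest in duodenum 2 and had ileum near stomach and below colon. Slc30a2 ran most like Tcn2 (r = 0.968), which carries vitamin B12 in blood, then Xpnpep2 (r = 0.942) and the cytotoxic cell gene Prf1 (r = 0.924).

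For Slc30a1 the nearest were Arg2 (r = 0.984), a mitochondrial arginase, Slc7a9 (r = 0.983), an apical amino acid transporter, and Camk2b (r = 0.982). For Slc30a4 they were Rbm45 (r = 0.988), Pagr1 (r = 0.978) and Pitpna (r = 0.977). Mt1a ran most like Rpl29 (r = 0.953), Casp4 (r = 0.95) and Krt19 (r = 0.95). Slc39a8 ran most like Parg (r = 0.972), Fzd7 (r = 0.964) and Hepacam2 (r = 0.962), and Slc39a14 like Pon1 (r = 0.936), Nfe2l3 (r = 0.921) and Mfsd5 (r = 0.913). Among the zinc genes themselves, Slc39a4 and Slc30a4 had r = 0.884.

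**Figure D4:**
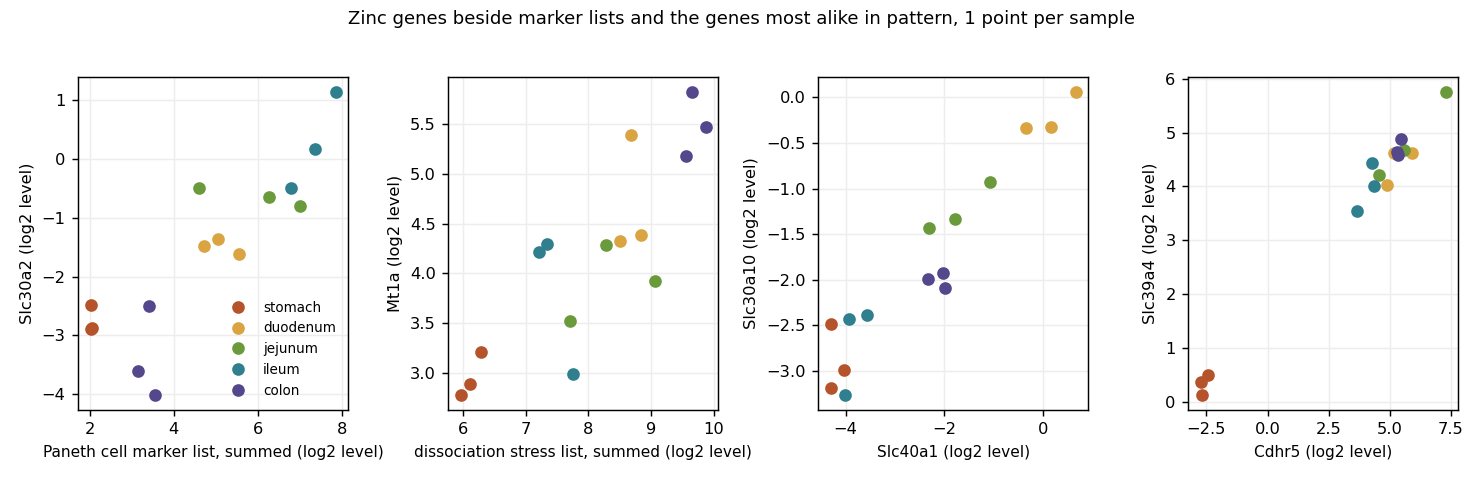
Levels of Slc30a2, Mt1a, Slc30a10 and Slc39a4 (y axes, log2) against, in turn, the summed Paneth cell markers, the summed dissociation genes, Slc40a1 and Cdhr5 (x axes, log2), with 1 point per sample coloured by segment. Segments mix within the intestine for Slc39a4. On the Paneth axis jejunum spans 4.61 to 7.02 and overlaps with duodenum and ileum, while colon lies apart at 3.14 to 3.55. For Mt1a the 3 colon samples are furthest right, but duodenum 2 (5.39) lies above colon 2 (5.18). The 3 stomach samples are at the bottom left for Slc39a4.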

How the data were processed

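The 15 scanner files hold the processed intensity of each spot, from which the authors' Feature Extraction software had subtracted background and corrected for dye, per the file headers, together with other values such as 0 or 1 flags, per the file headers. The deposited table of intensity values equals the labelled channel. Array designs place probes on build rn3; whether a probe lies in an exon or UTR is not given in the sources used here.

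The labelled channel was scaled to each sample's 75th percentile and log2-transformed, and spots marked non-uniform or outlying were left out. Probes well above background in all samples of at least 1 segment were kept (38797 probes, 33607 genes). limma 3.58.1 in R 4.3.3 fitted segment and dye, let samples of the same slide correlate (0.361), used an intensity trend and left 9 residual degrees of freedom; calls had an adjusted p under 0.05. The fit was tested on simulated data. Besides the F test, 4 main contrasts and 8 other pairs of segments were fitted.

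Genes named beside the 9 were the 3 nearest by correlation and the called genes of other lists, up to 3 in each direction. The members, lists and tests were chosen with earlier results of these data known. Alternatives covered background correction, scaling, filters, blocks, dye, probe choice, trend and each sample left out. The number of arrays limits precision, and median intensities ran from 92.4 to 1048.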

Additional observations from a re-analysis of the deposited data

How the results depend on the processing

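The 7 stomach calls kept direction and threshold under every alternative that could be run and in all 15 fits without a sample. With only probes well above background in every sample, 3 genes (Slc39a14, Slc30a2 and Slc30a10) had no probe left. Zinc genes called between duodenum and jejunum rose from 0 to 1 with normexp (run on median signals, since mean signals were not used here for colon) and with quantile normalisation. In colon they fell from 5 to 3 with normexp and with the mean of all probes. Among the 6 genes left by the strict filter, 5 were called by the F test, 0 between ileum and jejunum and 3 in colon. For most such changes the cause was not tested; the strict filter tests fewer genes.

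Counts over all genes moved by over 1.5 times from 9180 in stomach to 6001 (strict filter) and 4986 (scan day as block), from 186 between duodenum and jejunum to 66 (strict filter), 47 (no slide block), 303 (no dye term), 322 (colon 2 and 3 averaged) and 117 (no trend), from 1413 between ileum and jejunum to 716 (scan day) and 710 (no trend), and from 8665 in colon to 13389 (no slide block). Without 1 sample the counts ran from 10341 to 15652 by the F test, 5822 to 10208 in stomach, 29 to 1194 between duodenum and jejunum, 471 to 3614 between ileum and jejunum and 5933 to 9486 in colon. Zinc genes called ran from 8 to 8, 7 to 8, 0 to 1, 0 to 2 and 3 to 5. The median of all genes in colon was 0.00 and became 0.33 with normexp, and the share of higher calls went from 48.8% to 66.4%; in stomach the median was 0.28, −0.06 with normexp, 0.11 with quantile normalisation and 0.38 with median scaling.

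Sign changes touched differences that were not called. In ileum against jejunum these were, with normexp, Slc39a4 at 0.20 and Slc39a8 at −0.13, with quantile normalisation Slc39a8 at −0.10, and for Mt1a −0.025 (scan day) and −0.077 (no dye term). In colon they were Slc39a5 at −0.14 with normexp and Slc39a4 at −0.33 with quantile normalisation. Without 1 sample, ileum against jejunum ran from −0.20 to 0.14 for Slc39a8, −0.19 to 0.46 for Mt1a and −0.30 to 0.12 for Slc39a5, duodenum against jejunum from −0.14 to 0.13 for Slc30a1 and −0.067 to 0.19 for Slc30a4, and colon from −0.058 to 0.37 for Slc39a5.

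Replicate numbers gave no clear sign of pairing: 6 of 30 same-numbered pairs had a correlation of deviations over 0.1 (range −0.422 to 0.293). The check cannot exclude pairing, since duodenum and jejunum shared slides across different numbers and only same-numbered pairs were examined. With the replicate block, 14517 genes were called by the F test, 9534 in stomach, 79 between duodenum and jejunum, 702 between ileum and jejunum and 9067 in colon, and 8, 8, 0, 1 and 4 zinc genes. Under this block Slc39a5 passed in stomach (adjusted p = 0.0456), Slc39a8 was lost in colon (0.86, adjusted p = 0.0619), and Slc30a1 and Slc30a4 between duodenum and jejunum were −0.013 and −0.048 and Mt1a between ileum and jejunum −0.091.

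Signal over background limited ileum 1, whose lowest level well above background was −1.75 against −5.51 to −2.72 in the other small bowel samples, which had the same threshold. Without it, Slc30a2 in ileum against jejunum was 1.34 (adjusted p = 0.133).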

Other observations

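Genes of copper handling, a metal that competes with zinc for metallothionein, were split. Of 9 tested, 4 were higher in stomach than in the small bowel, led by the extracellular superoxide dismutase Sod3 (3.34), the copper exporter Atp7a (1.56) and the mitochondrial chaperone Cox17 (1.17), and the chaperones Ccs (−1.57) and Atox1 (−0.67) were lower. In ileum the copper importer Slc31a1 (−1.71) and Atox1 (−0.96) were lower than in jejunum, and in colon Cox17 (1.57) and Sod1 (1.1) were higher than in the small bowel. None passed between duodenum and jejunum by limma's adjusted p.

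Of 7 tested genes of the metal and oxidative stress response, 4 were lower in stomach, led by haem oxygenase Hmox1 (−2.33), glutathione reductase Gsr (−2.10) and thioredoxin reductase Txnrd1 (−1.99), and Gclm was higher (3.50), with 3 of 9 small bowel samples well above background, which leaves the size of that difference uncertain. Hmox1 was lower in colon too (−1.24), where Mt1a was higher. Of 7 glucocorticoid-responsive genes, 3 were higher in stomach, Sgk1 (1.68), Fkbp5 (1.68) and Klf9 (1.36), Klf9 was higher in ileum than in jejunum (1.51), and Klf9 (2.25) and the receptor Nr3c1 (1.08) were higher in colon. Differences are on the log2 scale.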
